A study of Mus musculus with 30 samples.

Results

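The mitosis and spindle genes are a set of 44 genes that cells use to divide their chromosomes. They were chosen by gene symbol from what their products do, with earlier results of these data known. The array table held 1 transcript cluster for each of 42 of them, out of 22139 clusters tested in all, whereas Ccnb1 and Foxm1 had no cluster with their symbol in the annotation used here and were not analysed here. The kidneys came from 30 male C57BL/6 mice of 9 to 11 weeks, 5 in each of 6 groups. Trp53(+/+) mice have an intact gene for the p53 transcription factor, and in Trp53(+/-) and Trp53(-/-) mice a neomycin cassette replaces exons of 1 or of both alleles in every tissue. Mice of each genotype were injected intraperitoneally once a day for 6 days with aristolochic acid I (AAI), a plant nephrotoxin and carcinogen, at 3.5 mg/kg body weight or with water, and the kidneys were taken 24 h after the last injection. RNA came from a portion of whole kidney, so that more dividing cells and more RNA per dividing cell cannot be told apart.

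Most cells of the adult kidney rest outside the cell cycle, and tubule cells are known to re-enter it after injury. At the start of mitosis, cyclin-dependent kinase 1 with B-type cyclins, Polo-like kinase and the Aurora kinases condense the chromosomes and build the spindle. Kinetochores then tie the chromosomes to microtubules, the spindle checkpoint holds back anaphase until all are attached, and the central spindle guides the split into daughter cells. Transcription of these genes is known to peak late in the cycle, when the MuvB complex joins MYBL2 and FOXM1 at their promoters, and to be shut in resting cells by the DREAM complex, which p53 is known to strengthen through the kinase inhibitor Cdkn1a.

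Signals are log2 values from Clariom S mouse arrays, on which a difference of 1 is a 2-fold change, and a level cannot be compared between genes. Array medians over all clusters ran from 5.88 to 5.99. A gene was called risen or fallen at a limma p under 0.05 after Benjamini-Hochberg adjustment over all clusters of a comparison, with 5 arrays on each side unless stated. All 42 genes had their highest group mean in Trp53(-/-) AAI kidneys, and 35 had their lowest in Trp53(+/+) water kidneys. With AAI, 38 of the 42 genes rose in Trp53(+/+) kidneys, where 15.2% of all clusters rose. In Trp53(+/-) kidneys 16 rose against 3.53% of all clusters, and in Trp53(-/-) kidneys 41 rose against 15.5%. None of the 42 fell in any genotype, although 12.0%, 3.81% and 10.9% of all clusters did. A rise of at least 2-fold was called for 19, 6 and 33 genes, against 3.37%, 0.700% and 3.33% of all clusters. The median log2 change of the 42 genes was 0.99, 0.63 and 1.56, and that of all clusters was -0.03, 0.00 and -0.01. Every AAI array lay above every water array of its genotype for 20 genes in Trp53(+/+) kidneys (9.71% of all clusters), 16 in Trp53(+/-) kidneys (4.09%) and 39 in Trp53(-/-) kidneys (10.5%).

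**Figure D1:**
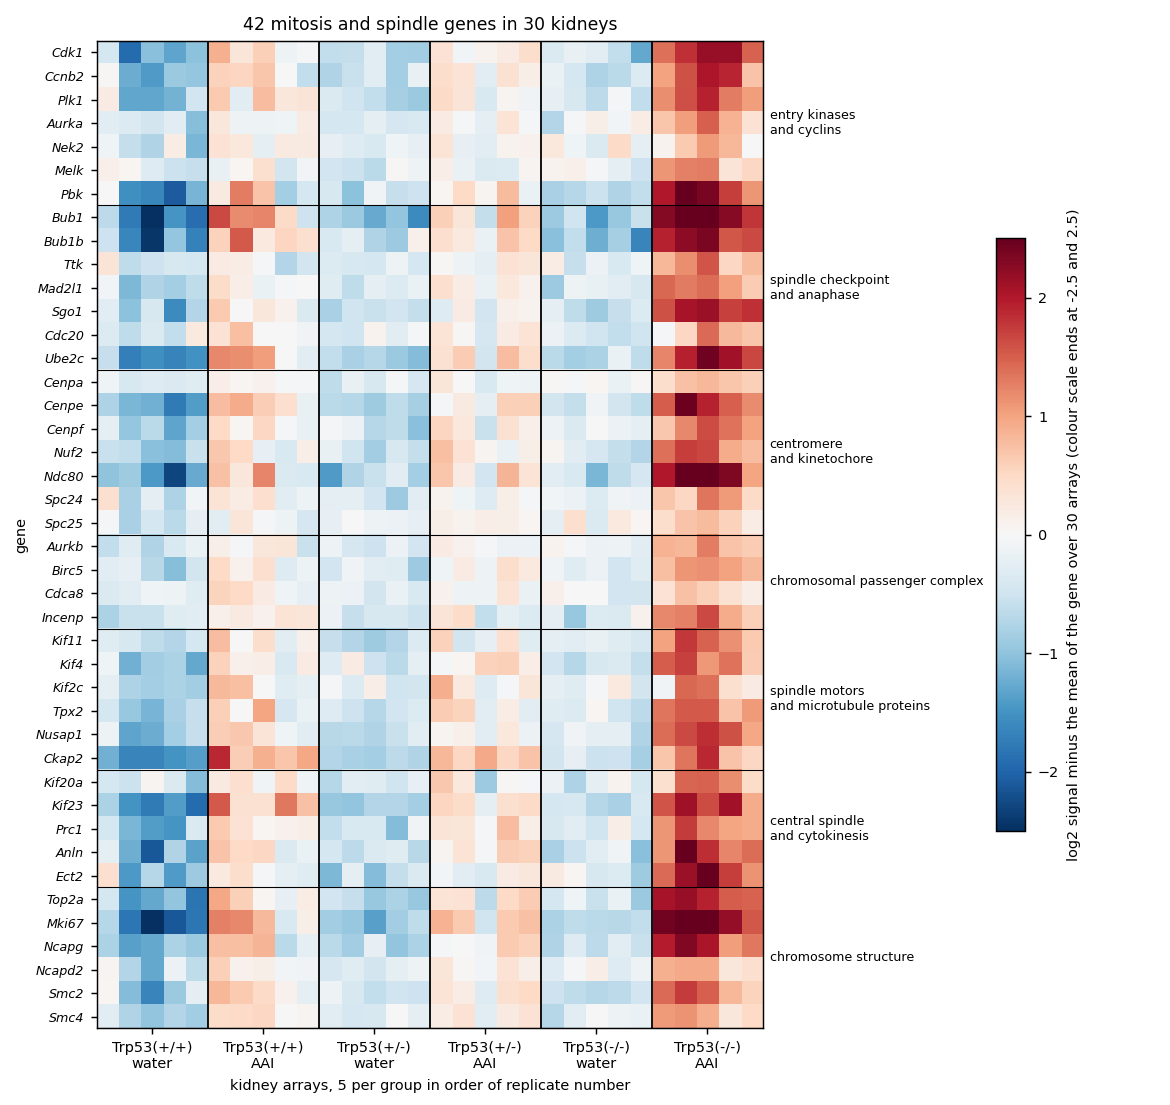
Log2 signal of the 42 genes (rows, in 7 role groups) in the 30 kidney arrays (columns, 5 per group), each gene shown relative to its own mean over all arrays. The 5 Trp53(-/-) AAI columns are the reddest for most genes, the first Trp53(+/+) water column is paler than the other 4, and the third Trp53(+/-) AAI column is bluer than the rest of its group.

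A known batch overlaps these groups. Complementary DNA was made in 2 batches, and a colour bar of the study gives the batch per group without naming arrays. Batch 1 held all Trp53(+/+) water kidneys, all Trp53(+/-) AAI kidneys and 4 of the Trp53(+/+) AAI kidneys. Batch 2 held all Trp53(+/-) water kidneys, both Trp53(-/-) groups and 1 Trp53(+/+) AAI kidney. The AAI change in Trp53(-/-) kidneys therefore lies inside batch 2 and that in Trp53(+/+) kidneys nearly all inside batch 1. The AAI change in Trp53(+/-) kidneys, and every comparison of Trp53(-/-) with other AAI kidneys, falls nearly or wholly along the batch. A batch term was fitted 5 times, with each Trp53(+/+) AAI array in turn placed in batch 2. The genes risen then numbered 33 to 38 in Trp53(+/+), 41 in Trp53(-/-) and 0 to 9 in Trp53(+/-) kidneys. The shares of all clusters called with the batch terms are not given here, so these counts cannot be set against them.

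Promoters of 35 of the 42 genes, 37 windows from 250 bases before to 50 after a transcription start, were found in the RefSeq table of build GRCm38.p6. They were searched on both strands for the CHR element, which MuvB binds (TTTGAA or TTCGAA), and for the NF-Y site CCAAT. Words that overlapped were each counted. A CHR word stood in 30 of the 37 windows (81.1%), compared with 19.2% of all 32851 windows of the table and 17.6% of those of protein-coding genes. CCAAT stood in 29 windows (78.4%), compared with 37.4% of all windows, and 18 windows (48.6%) held at least 2 copies, compared with 11.7%. Both words stood in 27 windows (73.0%) and in 7.52% of all windows. An E2F word (TTTCCCGC, TTTGGCGC, TTTCGCGC or TTTGCCGC) stood in 3 windows (8.11%), those of Cdk1, Ncapd2 and Ncapg, compared with 2.26% of all windows. The promoters of Cdk1, Bub1, Mki67 and Ckap2 are shown because these genes mark the range of responses described here: the first 3 had their largest rise in Trp53(-/-) kidneys, and Ckap2 did not. Each run is the 200 bases before the transcription start, on the strand of the gene, 5′ to 3′, with CHR and CCAAT words of either strand in capitals.
Cdk1, chr10:69352913-69353112, minus strand: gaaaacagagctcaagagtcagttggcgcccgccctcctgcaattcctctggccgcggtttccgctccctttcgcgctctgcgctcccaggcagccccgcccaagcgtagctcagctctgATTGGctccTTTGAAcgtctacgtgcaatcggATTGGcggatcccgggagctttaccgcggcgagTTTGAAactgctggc
Bub1, chr2:127831860-127832059, minus strand: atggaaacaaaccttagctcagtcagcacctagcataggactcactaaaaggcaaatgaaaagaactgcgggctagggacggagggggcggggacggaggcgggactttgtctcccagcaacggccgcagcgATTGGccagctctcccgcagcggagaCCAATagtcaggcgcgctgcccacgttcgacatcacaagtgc
Mki67, chr7:135716380-135716579, minus strand: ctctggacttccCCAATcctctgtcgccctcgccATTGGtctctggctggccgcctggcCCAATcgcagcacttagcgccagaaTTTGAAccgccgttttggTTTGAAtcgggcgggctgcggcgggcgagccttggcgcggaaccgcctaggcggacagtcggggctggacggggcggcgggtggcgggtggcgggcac
Ckap2, chr8:22185820-22186019, minus strand: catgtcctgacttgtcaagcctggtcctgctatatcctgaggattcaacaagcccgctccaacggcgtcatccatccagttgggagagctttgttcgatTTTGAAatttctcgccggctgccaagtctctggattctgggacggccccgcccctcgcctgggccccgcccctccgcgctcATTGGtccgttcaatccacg
The run of Cdk1 holds 2 CHR and 2 CCAAT words, that of Mki67 holds 2 and 3, and that of Ckap2 holds 1 of each. Bub1 shows 2 CCAAT words in these bases, and its only CHR word in the searched window lies after the start. Such a match is a description of letters and not a measured binding site.

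The kinases and the cyclin that start mitosis came first in order of action. Of 7 genes measured, 6 rose where Trp53 was intact, 2 in Trp53(+/-) and 6 in Trp53(-/-) kidneys, with median log2 changes of 1.15, 0.73 and 1.79. Cdk1 encodes the kinase that drives entry into mitosis. Cdk1 read 4.54, 3.05, 3.92, 3.66 and 3.95 with water and 5.86, 5.27, 5.57, 4.85 and 4.92 with AAI in Trp53(+/+) kidneys. Its Trp53(+/-) values were 4.35, 4.37, 4.69, 4.12 and 4.11 and 5.34, 4.91, 5.06, 5.19 and 5.42, respectively. Its Trp53(-/-) values were 4.61, 4.79, 4.70, 4.35 and 3.69 and 6.36, 6.79, 7.16, 7.15 and 6.45, respectively. AAI and water arrays did not overlap in any genotype, and the lowest Trp53(-/-) AAI array stood above every array of the other groups. Cdk1 changed by 1.47 ± 0.23 (log2, SE), 0.85 ± 0.23 and 2.35 ± 0.23 in Trp53(+/+), Trp53(+/-) and Trp53(-/-) kidneys, at adjusted p of 4.78e-06, 0.0143 and 7.55e-10. Pbk, which encodes a mitotic kinase, had the largest mean change of these 7. Pbk in the Trp53(+/+) arrays stood at 5.48, 3.94, 3.84, 3.41 and 4.32 for water and 5.71, 6.76, 6.18, 4.62 and 5.05 for AAI. Trp53(+/-) arrays gave 5.07, 4.44, 5.39, 4.90 and 4.95 for water and 5.53, 5.98, 5.55, 6.27 and 5.31 for AAI. Trp53(-/-) arrays gave 4.67, 4.76, 4.95, 4.72 and 4.87 for water and 7.49, 8.52, 7.86, 7.21 and 6.59 for AAI. In Trp53(+/+) kidneys the first water array lay above 2 AAI arrays, and only in Trp53(-/-) kidneys were the treatments separate. AAI moved Pbk by 1.47 ± 0.34 (log2, SE, adjusted p 0.00109) where Trp53 was intact, by 0.78 ± 0.34 (0.217) in heterozygous and by 2.74 ± 0.34 (1.11e-07) in Trp53(-/-) kidneys. Plk1 (Polo-like kinase) changed by 1.16, 0.73 and 1.79, and Ccnb2 (a B-type cyclin) by 1.15, 0.73 and 1.93, in Trp53(+/+), Trp53(+/-) and Trp53(-/-) kidneys, respectively. Aurka, the kinase of the spindle poles, changed by 0.50, 0.43 and 0.99. Nek2, a centrosome kinase, was the only 1 of the 42 genes not called in Trp53(-/-) kidneys, with 0.66, 0.26 and 0.52 and an adjusted p of 0.0602 there and 0.0147 in Trp53(+/+) kidneys. Melk, a kinase of dividing and stem cells, was called in Trp53(-/-) kidneys alone, with 0.20, 0.23 and 1.01.

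**Figure D2:**
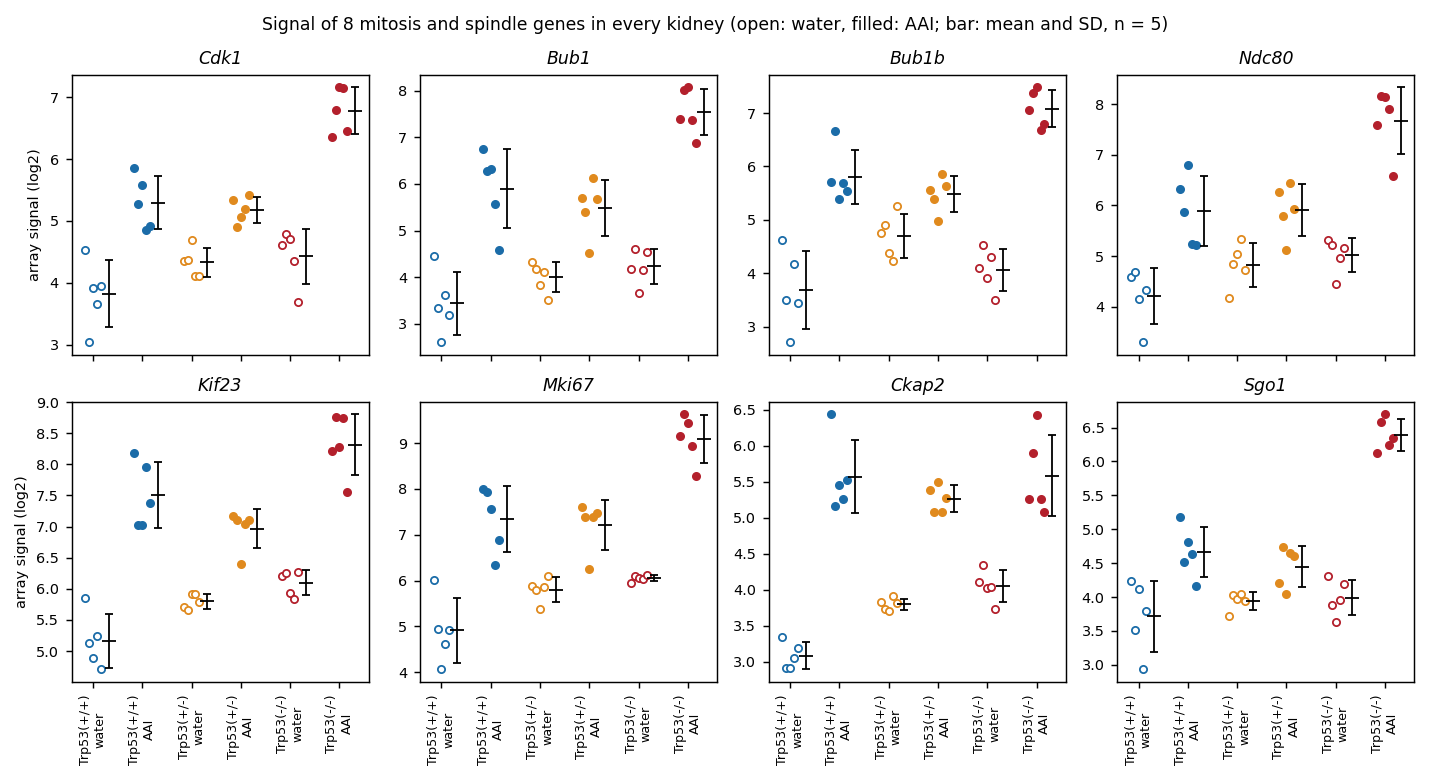
Log2 signal (y axis) of 8 genes in each of the 30 kidneys, by group (x axis); open points are water, filled points AAI, and the bar beside each group is its mean and SD over 5 arrays. For Cdk1, Bub1, Bub1b, Mki67 and Sgo1 all 5 Trp53(-/-) AAI points lie above every other point, whereas for Ckap2 the 3 AAI groups overlap.

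The spindle checkpoint genes, with the ubiquitin enzymes that act when it is satisfied, included the largest changes of all. Of 7 genes, 6 rose where Trp53 was intact, 2 in Trp53(+/-) and 7 in Trp53(-/-) kidneys, with medians of 0.95, 0.51 and 2.40. Bub1 encodes a checkpoint kinase of the kinetochore. Bub1 signals were 4.46, 3.34, 2.61, 3.62 and 3.19 in Trp53(+/+) water kidneys and 6.75, 6.28, 6.32, 5.58 and 4.58 in Trp53(+/+) AAI kidneys. Bub1 in Trp53(+/-) mice came to 4.33, 4.18, 3.84, 4.11 and 3.51 without and 5.70, 5.41, 4.51, 6.12 and 5.68 with AAI. Bub1 signals of Trp53(-/-) kidneys were 4.18, 4.61, 3.67, 4.16 and 4.53 with water and 7.40, 8.01, 8.08, 7.37 and 6.88 with AAI. The treatments were separate in all 3 genotypes, and the lowest Trp53(-/-) AAI array was just above the highest Trp53(+/+) one. The log2 change of Bub1 with AAI was 2.46 ± 0.33 (SE) for Trp53(+/+), 1.49 ± 0.33 for Trp53(+/-) and 3.32 ± 0.33 for Trp53(-/-) mice, and the adjusted p was 4.64e-07, 0.00298 and 1.48e-09. These are changes of 5.50-fold, 2.81-fold and 9.97-fold. Bub1b encodes BUBR1, which helps to inhibit the anaphase-promoting complex. Bub1b read 4.63, 3.50, 2.71, 4.17 and 3.44 with water and 5.71, 6.67, 5.38, 5.68 and 5.53 with AAI in Trp53(+/+) kidneys. Its Trp53(+/-) values were 4.75, 4.90, 4.39, 4.23 and 5.25 and 5.56, 5.38, 4.97, 5.86 and 5.64, respectively. Its Trp53(-/-) values were 4.10, 4.52, 3.91, 4.30 and 3.49 and 7.06, 7.37, 7.48, 6.69 and 6.79, respectively. Water and AAI arrays of Trp53(+/-) mice overlapped, and those of the other genotypes did not. Bub1b changed by 2.10 ± 0.27 (log2, SE), 0.78 ± 0.27 and 3.01 ± 0.27 in Trp53(+/+), Trp53(+/-) and Trp53(-/-) kidneys, at adjusted p of 2.22e-07, 0.0793 and 2.09e-10. Sgo1 encodes shugoshin, which guards cohesin at the centromere until anaphase. Sgo1 in the Trp53(+/+) arrays stood at 4.23, 3.51, 4.12, 2.94 and 3.79 for water and 5.18, 4.52, 4.81, 4.64 and 4.17 for AAI. Trp53(+/-) arrays gave 3.72, 4.02, 3.98, 4.04 and 3.94 for water and 4.21, 4.73, 4.04, 4.65 and 4.61 for AAI. Trp53(-/-) arrays gave 4.31, 3.88, 3.63, 3.95 and 4.19 for water and 6.12, 6.58, 6.69, 6.24 and 6.35 for AAI. The lowest Trp53(-/-) AAI array, at 6.12, was far above the highest of any other group, at 5.18, while AAI and water arrays overlapped in Trp53(+/+) kidneys and nearly touched in Trp53(+/-) kidneys. AAI moved Sgo1 by 0.95 ± 0.19 (log2, SE, adjusted p 0.000268) where Trp53 was intact, by 0.51 ± 0.19 (0.124) in heterozygous and by 2.40 ± 0.19 (2.73e-11) in Trp53(-/-) kidneys. Ttk encodes the checkpoint kinase MPS1. Ttk signals were 5.14, 4.19, 4.31, 4.41 and 4.39 in Trp53(+/+) water kidneys and 5.02, 5.00, 4.79, 4.08 and 4.35 in Trp53(+/+) AAI kidneys. Ttk in Trp53(+/-) mice came to 4.48, 4.41, 4.38, 4.69 and 4.37 without and 4.85, 4.70, 4.60, 5.18 and 5.12 with AAI. Ttk signals of Trp53(-/-) kidneys were 5.01, 4.25, 4.67, 4.45 and 4.71 with water and 5.66, 5.98, 6.39, 5.34 and 5.61 with AAI. Trp53(+/+) and Trp53(+/-) AAI arrays were mixed with their water arrays, and the Trp53(-/-) AAI arrays were above every other. The log2 change of Ttk with AAI was 0.16 ± 0.19 (SE) for Trp53(+/+), 0.42 ± 0.19 for Trp53(+/-) and 1.18 ± 0.19 for Trp53(-/-) mice, and the adjusted p was 0.58, 0.249 and 1.21e-05. Mad2l1 (the checkpoint protein MAD2) changed by 0.76, 0.50 and 1.54, Cdc20 (the activator of the anaphase-promoting complex) by 0.55, 0.34 and 1.10 and Ube2c (its ubiquitin-conjugating enzyme) by 2.03, 1.18 and 2.49 in the same order of genotypes. Ube2c thus rose at least 2-fold in every genotype, as did Bub1, Ndc80, Ckap2, Kif23 and Mki67.

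Centromere and kinetochore genes followed, with 5, 4 and 7 of 7 risen and medians of 0.93, 0.67 and 1.34. Ndc80 encodes the kinetochore subunit that grips microtubules. Ndc80 read 4.59, 4.69, 4.15, 3.30 and 4.33 with water and 6.33, 5.87, 6.80, 5.23 and 5.21 with AAI in Trp53(+/+) kidneys. Its Trp53(+/-) values were 4.17, 4.84, 5.04, 5.33 and 4.73 and 6.27, 5.79, 5.11, 6.44 and 5.93, respectively. Its Trp53(-/-) values were 5.31, 5.21, 4.45, 4.95 and 5.16 and 7.58, 8.17, 8.14, 7.91 and 6.57, respectively. Arrays were separate by treatment in Trp53(+/+) and Trp53(-/-) kidneys, and in Trp53(+/-) kidneys 1 AAI array fell within the water range. Ndc80 changed by 1.68 ± 0.31 (log2, SE), 1.09 ± 0.31 and 2.66 ± 0.31 in Trp53(+/+), Trp53(+/-) and Trp53(-/-) kidneys, at adjusted p of 7.45e-05, 0.0242 and 3.67e-08. Cenpe encodes a kinesin that moves chromosomes to the spindle equator. Cenpe in the Trp53(+/+) arrays stood at 4.34, 3.97, 3.90, 3.35 and 3.71 for water and 5.88, 6.03, 5.73, 5.54 and 4.93 for AAI. Trp53(+/-) arrays gave 4.44, 4.39, 4.22, 4.48 and 4.27 for water and 5.06, 5.34, 4.89, 5.70 and 5.71 for AAI. Trp53(-/-) arrays gave 4.66, 4.51, 5.02, 4.65 and 4.48 for water and 6.63, 7.55, 7.04, 6.60 and 6.29 for AAI. No AAI array overlapped a water array of its genotype. AAI moved Cenpe by 1.77 ± 0.21 (log2, SE, adjusted p 3.62e-08) where Trp53 was intact, by 0.98 ± 0.21 (0.00197) in heterozygous and by 2.16 ± 0.21 (6.91e-10) in Trp53(-/-) kidneys. The other members of the NDC80 complex moved less, with 0.93, 0.74 and 1.68 for Nuf2, 0.41, 0.38 and 0.98 for Spc24 and 0.34, 0.26 and 0.51 for Spc25. Spc25 had the smallest mean change of the 42 genes. Spc25 signals were 6.83, 6.05, 6.43, 6.18 and 6.61 in Trp53(+/+) water kidneys and 6.60, 7.16, 6.84, 6.75 and 6.45 in Trp53(+/+) AAI kidneys. Spc25 in Trp53(+/-) mice came to 6.65, 6.88, 6.73, 6.71 and 6.65 without and 7.01, 6.95, 7.03, 7.0 and 6.91 with AAI. Spc25 signals of Trp53(-/-) kidneys were 6.63, 7.29, 6.51, 7.12 and 6.91 with water and 7.30, 7.57, 7.65, 7.45 and 7.06 with AAI. Its treatments overlapped in Trp53(+/+) and Trp53(-/-) kidneys, and it was called only in the latter (adjusted p 0.0897, 0.469 and 0.00863). Cenpa, the histone H3 variant that marks centromeres, had the next smallest. Cenpa read 6.54, 6.26, 6.32, 6.30 and 6.36 with water and 6.82, 6.70, 6.76, 6.62 and 6.63 with AAI in Trp53(+/+) kidneys. Its Trp53(+/-) values were 6.02, 6.47, 6.26, 6.63 and 6.23 and 6.95, 6.63, 6.27, 6.55 and 6.52, respectively. Its Trp53(-/-) values were 6.68, 6.59, 6.69, 6.47 and 6.68 and 7.10, 7.37, 7.47, 7.33 and 7.25, respectively. The shifts were small but the Trp53(+/+) and Trp53(-/-) treatments did not overlap. Cenpa changed by 0.35 ± 0.11 (log2, SE), 0.26 ± 0.11 and 0.68 ± 0.11 in Trp53(+/+), Trp53(+/-) and Trp53(-/-) kidneys, at adjusted p of 0.0163, 0.199 and 1.29e-05. Cenpf, a large outer kinetochore protein, changed by 0.98, 0.67 and 1.34.

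The chromosomal passenger complex corrects faulty attachments and later acts in cytokinesis. All 4 of its genes rose in Trp53(+/+) and Trp53(-/-) kidneys and 1 in Trp53(+/-) kidneys, with medians of 0.56, 1.09 and 0.33, respectively. Incenp encodes the scaffold of the complex. Incenp in the Trp53(+/+) arrays stood at 4.81, 5.04, 5.04, 5.29 and 5.33 for water and 5.73, 5.83, 5.70, 5.94 and 5.91 for AAI. Trp53(+/-) arrays gave 5.45, 5.03, 5.19, 5.19 and 5.06 for water and 5.93, 6.06, 4.98, 5.38 and 5.25 for AAI. Trp53(-/-) arrays gave 5.38, 4.66, 5.26, 5.24 and 5.72 for water and 6.81, 6.85, 7.25, 6.52 and 6.20 for AAI. In Trp53(+/-) kidneys the first 2 AAI arrays were above all water arrays and the other 3 were not. AAI moved Incenp by 0.72 ± 0.19 (log2, SE, adjusted p 0.00317) where Trp53 was intact, by 0.33 ± 0.19 (0.43) in heterozygous and by 1.47 ± 0.19 (1.5e-07) in Trp53(-/-) kidneys. Birc5 encodes survivin, which brings the complex to centromeres. Birc5 signals were 7.01, 7.06, 6.57, 6.21 and 6.82 in Trp53(+/+) water kidneys and 7.78, 7.38, 7.69, 6.95 and 7.14 in Trp53(+/+) AAI kidneys. Birc5 in Trp53(+/-) mice came to 6.79, 7.18, 6.98, 6.98 and 6.36 without and 7.16, 7.48, 7.15, 7.71 and 7.52 with AAI. Birc5 signals of Trp53(-/-) kidneys were 7.19, 6.98, 7.13, 6.79 and 6.97 with water and 8.03, 8.37, 8.41, 8.27 and 8.08 with AAI. AAI and water overlapped slightly in Trp53(+/+) and Trp53(+/-) kidneys, and the Trp53(-/-) AAI arrays were above every other. The log2 change of Birc5 with AAI was 0.65 ± 0.17 (SE) for Trp53(+/+), 0.55 ± 0.17 for Trp53(+/-) and 1.22 ± 0.17 for Trp53(-/-) mice, and the adjusted p was 0.00291, 0.0373 and 6.05e-07. The kinase gene Aurkb changed by 0.47, 0.33 and 0.97, and Cdca8 (borealin) by 0.43, 0.27 and 0.61.

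Among spindle motors and microtubule proteins, 6, 2 and 6 of 6 genes rose, with medians of 0.99, 0.62 and 1.56. Ckap2, which encodes a microtubule-stabilising protein of the spindle, had the largest change of any of the 42 genes in Trp53(+/+) kidneys. It is also 1 of the 8 genes with no group mean above 5.95, the median over all clusters. Whether its signals exceed background is not given by the values. Ckap2 read 3.34, 2.91, 2.91, 3.05 and 3.19 with water and 6.43, 5.16, 5.45, 5.26 and 5.53 with AAI in Trp53(+/+) kidneys. Its Trp53(+/-) values were 3.82, 3.74, 3.70, 3.90 and 3.81 and 5.39, 5.08, 5.50, 5.08 and 5.27, respectively. Its Trp53(-/-) values were 4.10, 4.35, 4.02, 4.03 and 3.72 and 5.25, 5.90, 6.43, 5.26 and 5.07, respectively. Treatments were far apart in every genotype, the 3 AAI groups overlapped, and both mutant water groups lay above all Trp53(+/+) water arrays. Ckap2 changed by 2.48 ± 0.20 (log2, SE), 1.47 ± 0.20 and 1.54 ± 0.20 in Trp53(+/+), Trp53(+/-) and Trp53(-/-) kidneys, at adjusted p of 2.72e-11, 2.13e-05 and 2.94e-07. Nusap1 encodes a protein that bundles microtubules near chromatin. Nusap1 in the Trp53(+/+) arrays stood at 6.46, 5.26, 5.33, 5.73 and 5.99 for water and 7.20, 7.25, 6.91, 6.47 and 6.31 for AAI. Trp53(+/-) arrays gave 5.88, 5.91, 5.82, 6.03 and 6.31 for water and 6.65, 6.69, 6.32, 6.84 and 6.43 for AAI. Trp53(-/-) arrays gave 6.17, 6.48, 6.36, 6.34 and 5.83 for water and 7.98, 8.23, 8.43, 8.16 and 7.54 for AAI. The first Trp53(+/+) water array lay above the lowest AAI array of that genotype, and Trp53(-/-) AAI arrays were above every other. AAI moved Nusap1 by 1.07 ± 0.20 (log2, SE, adjusted p 6.94e-05) where Trp53 was intact, by 0.60 ± 0.20 (0.0623) in heterozygous and by 1.84 ± 0.20 (7.91e-09) in Trp53(-/-) kidneys. Kif11, the motor that pushes spindle poles apart, changed by 0.72, 0.66 and 1.49, Kif4 (a chromosome-bound kinesin) by 0.99, 0.58 and 1.76, Tpx2 (an activator of Aurora A) by 0.99, 0.64 and 1.58 and the microtubule-depolymerising kinesin Kif2c by 0.91, 0.45 and 0.82.

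The central spindle and cytokinesis genes rose in 5, 2 and 5 of 5 cases, with medians of 1.23, 0.81 and 2.06. Kif23 encodes a motor of the centralspindlin complex. Kif23 signals were 5.85, 5.14, 4.88, 5.23 and 4.71 in Trp53(+/+) water kidneys and 8.17, 7.02, 7.02, 7.96 and 7.37 in Trp53(+/+) AAI kidneys. Kif23 in Trp53(+/-) mice came to 5.70, 5.66, 5.91, 5.92 and 5.79 without and 7.18, 7.10, 6.40, 7.05 and 7.11 with AAI. Kif23 signals of Trp53(-/-) kidneys were 6.21, 6.25, 5.93, 5.84 and 6.27 with water and 8.22, 8.75, 8.27, 8.75 and 7.56 with AAI. No treatments overlapped, and 2 Trp53(+/+) AAI arrays reached into the Trp53(-/-) AAI range. The log2 change of Kif23 with AAI was 2.34 ± 0.22 (SE) for Trp53(+/+), 1.17 ± 0.22 for Trp53(+/-) and 2.21 ± 0.22 for Trp53(-/-) mice, and the adjusted p was 5.42e-10, 0.000627 and 1.71e-09. Anln encodes anillin, a scaffold of the contractile ring. Anln read 5.88, 4.90, 3.99, 5.36 and 4.78 with water and 6.84, 6.61, 6.64, 5.75 and 5.94 with AAI in Trp53(+/+) kidneys. Its Trp53(+/-) values were 5.67, 5.47, 5.75, 5.80 and 5.42 and 6.18, 6.45, 6.08, 6.74 and 6.69, respectively. Its Trp53(-/-) values were 5.31, 5.58, 5.82, 6.03 and 5.07 and 7.22, 8.66, 7.95, 7.34 and 7.51, respectively. Only in Trp53(+/+) kidneys did a water array exceed an AAI array. Anln changed by 1.37 ± 0.27 (log2, SE), 0.81 ± 0.27 and 2.17 ± 0.27 in Trp53(+/+), Trp53(+/-) and Trp53(-/-) kidneys, at adjusted p of 0.000162, 0.0643 and 1.13e-07. Ect2, which activates RhoA at the division plane, changed by 0.83, 0.63 and 2.06, Prc1 (a bundler of midzone microtubules) by 1.23, 0.81 and 1.49 and the midzone kinesin Kif20a by 0.65, 0.41 and 1.29.

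The chromosome structure genes rose in 6, 3 and 6 of 6 cases, with medians of 1.23, 0.79 and 2.03. Mki67 encodes Ki-67, which coats mitotic chromosomes and is the usual marker of cycling cells. Mki67 in the Trp53(+/+) arrays stood at 6.02, 4.94, 4.07, 4.61 and 4.93 for water and 7.99, 7.94, 7.55, 6.35 and 6.88 for AAI. Trp53(+/-) arrays gave 5.87, 5.80, 5.38, 5.86 and 6.11 for water and 7.60, 7.38, 6.25, 7.39 and 7.47 for AAI. Trp53(-/-) arrays gave 5.95, 6.10, 6.05, 6.04 and 6.12 for water and 9.15, 9.63, 9.44, 8.94 and 8.28 for AAI. The 5 Trp53(-/-) water arrays lay close together, and every Trp53(-/-) AAI array was above all others. AAI moved Mki67 by 2.43 ± 0.30 (log2, SE, adjusted p 1.02e-07) where Trp53 was intact, by 1.42 ± 0.30 (0.00204) in heterozygous and by 3.03 ± 0.30 (1.33e-09) in Trp53(-/-) kidneys. The fold changes were 5.39, 2.67 and 8.19. Top2a encodes the topoisomerase that untangles sister DNA. Top2a signals were 5.22, 4.18, 4.37, 4.66 and 3.83 in Trp53(+/+) water kidneys and 6.62, 6.25, 5.70, 5.44 and 5.84 in Trp53(+/+) AAI kidneys. Top2a in Trp53(+/-) mice came to 5.16, 5.07, 4.71, 4.86 and 4.71 without and 6.00, 6.01, 5.00, 6.16 and 6.28 with AAI. Top2a signals of Trp53(-/-) kidneys were 5.20, 5.55, 5.09, 5.48 and 4.73 with water and 7.71, 7.82, 7.57, 7.16 and 7.13 with AAI. The third Trp53(+/-) AAI array fell among the water arrays of that genotype. The log2 change of Top2a with AAI was 1.52 ± 0.24 (SE) for Trp53(+/+), 0.99 ± 0.24 for Trp53(+/-) and 2.27 ± 0.24 for Trp53(-/-) mice, and the adjusted p was 6.08e-06, 0.00587 and 3.93e-09. Of the condensin genes, Ncapg changed by 1.32, 0.93 and 2.25, Smc2 by 1.14, 0.66 and 1.81, Smc4 by 1.02, 0.45 and 1.03 and Ncapd2 by 0.69, 0.46 and 0.82.

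**Figure D3:**
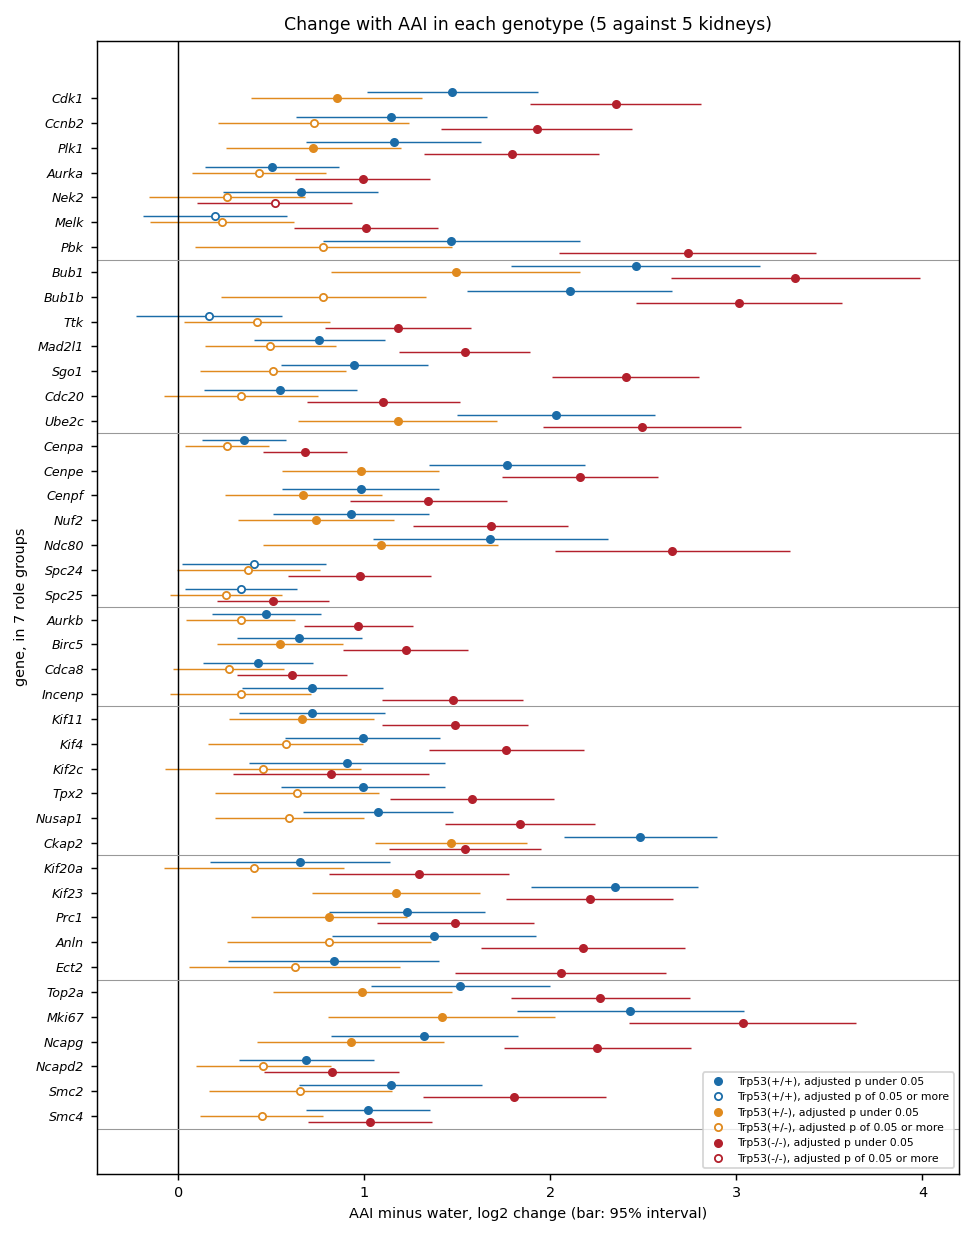
Log2 change with AAI (x axis) of each of the 42 genes (y axis) in Trp53(+/+) (blue), Trp53(+/-) (orange) and Trp53(-/-) (red) kidneys, with 95% intervals; filled points have an adjusted p under 0.05. For 36 genes the red point is to the right of the blue and the blue to the right of the orange, and Ckap2 is the clearest exception.

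Whether the AAI change depended on genotype was tested as the difference between the changes. The change was larger in Trp53(-/-) than in Trp53(+/+) kidneys for 38 of the 42 genes, by a median of 0.63, and the exceptions were Nek2, Kif2c, Ckap2 and Kif23. Of these exceptions, Nek2, Kif2c and Ckap2 had no group mean above 5.95, the median over all clusters. Sgo1 alone passed the adjusted threshold (0.104% of all clusters did), with a difference of 1.46 ± 0.27 and an adjusted p of 0.0104, while 23 of the 42 genes and 7.61% of all clusters had an unadjusted p under 0.05. Sgo1 stayed under the threshold with each of the 30 arrays left out in turn (adjusted p of 0.000632 to 0.0345) and with each batch term (0.00367 to 0.0324), and missed it in 1 of the other 7 alternatives (0.0591, with only the 4 groups compared in the fit), while the plain test of the methods gave an adjusted p of 0.299. For Ckap2 the difference ran the other way, at -0.95 ± 0.28 with an adjusted p of 0.344. A difference between changes combines the means of 4 groups, with the spread of each gene estimated over all 30 arrays. The median standard error of such a difference was 0.29, compared with 0.21 for a change within a genotype.

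Compared with Trp53(+/+), the AAI change in Trp53(+/-) kidneys was smaller for 40 of the 42 genes, by a median of 0.41 (log2 difference of -0.41). Kif23 was called (1.84% of all clusters were), at -1.17 ± 0.31 with an adjusted p of 0.042, and Ckap2 (-1.02 ± 0.28, adjusted p 0.0569) and Bub1b (-1.32 ± 0.38, adjusted p 0.0689) followed. Leaving out single arrays kept Kif23 under the threshold in 15 of 30 fits. Between Trp53(-/-) and Trp53(+/-) kidneys the AAI change was larger in Trp53(-/-) kidneys for all 42 genes, with a median difference of 0.99, and 17 genes were called, compared with 2.58% of all clusters. The largest of these differences were 2.23 ± 0.38 for Bub1b (adjusted p 0.00102), 1.96 ± 0.48 for Pbk (0.0196), 1.89 ± 0.27 for Sgo1 (0.000208) and 1.83 ± 0.47 for Bub1 (0.0253). Without the third Trp53(+/-) AAI array the count of 17 became 8, and with the batch terms it was 0 to 7. The shares of all clusters called in these fits are not given here. In both comparisons the AAI change of Trp53(+/-) kidneys and the cDNA batch cannot be told apart.

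Levels were then compared between genotypes under the same treatment. Among AAI kidneys, 34 of the 42 genes were higher in Trp53(-/-) than in Trp53(+/+) kidneys and none lower, compared with 3.10% of all clusters called in either direction, and the median difference was 1.02. All 5 Trp53(-/-) arrays lay above all 5 Trp53(+/+) arrays for 26 genes, which held for 1.97% of all clusters. The largest differences were 1.86 ± 0.34 for Pbk (adjusted p 0.00119), 1.79 ± 0.31 for Ndc80 (0.000714), 1.77 ± 0.28 for Ect2 (0.000286), 1.75 ± 0.30 for Mki67 (0.000658) and 1.73 ± 0.19 for Sgo1 (1.97e-06). The 8 genes not called were Nek2, Cdc20, Cdca8, Kif2c, Ckap2, Kif20a, Ncapd2 and Smc4. Of these, Nek2, Cdc20, Kif2c, Ckap2 and Kif20a had no group mean above 5.95, the median over all clusters. Against Trp53(+/-) AAI kidneys, 36 genes were higher in Trp53(-/-) kidneys and none lower (10.4% of all clusters were called), with a median difference of 1.04, and the arrays did not overlap for 34 genes (4.25% of all clusters). After the same adjustment, the plain test of the methods called no cluster of the whole array against Trp53(+/+) AAI kidneys (0 of 22139), and against Trp53(+/-) AAI kidneys it called 26 of the 42 genes and 5.33% of all clusters. At an unadjusted p under 0.05 with a 2-fold change it called 22 genes (0.524% of all clusters) and 23 genes (1.84%). These groups lie almost wholly in different batches. With the batch terms the first count became 0 to 18 with median differences of 0.71 to 1.28, and the second 0 to 16 with medians of 0.61 to 1.47. The shares of all clusters called with the batch terms are not given here. Trp53(+/-) and Trp53(+/+) AAI kidneys, which nearly all share batch 1, had no gene called by limma (1.54% of all clusters were) and 1 gene at an unadjusted p under 0.05 (10.8% of all clusters). The median difference was -0.09, and the plain test called 0 of the 22139 clusters after adjustment.

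In water kidneys the differences were smaller and ran along the batch as well. Trp53(-/-) exceeded Trp53(+/+) kidneys for 41 of the 42 genes by a median of 0.43, with 2 genes called (0.641% of all clusters) and 23 at an unadjusted p under 0.05 (14.8%). The 2 were Ckap2, higher by 0.96 ± 0.20 (adjusted p 0.0203), and Kif23, higher by 0.94 ± 0.22 (0.0373). Neither was called with any of the 5 batch terms. Between Trp53(+/-) and Trp53(+/+) water kidneys limma called none (0.235% of all clusters) and 13 genes had an unadjusted p under 0.05 (11.2%), with a median difference of 0.31. Between Trp53(-/-) and Trp53(+/-) water kidneys, which share batch 2, limma called none of the 42 genes and 0% of all clusters, 2 of the 42 had an unadjusted p under 0.05 (4.57% of all clusters), and the median difference was 0.19.

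**Figure D4:**
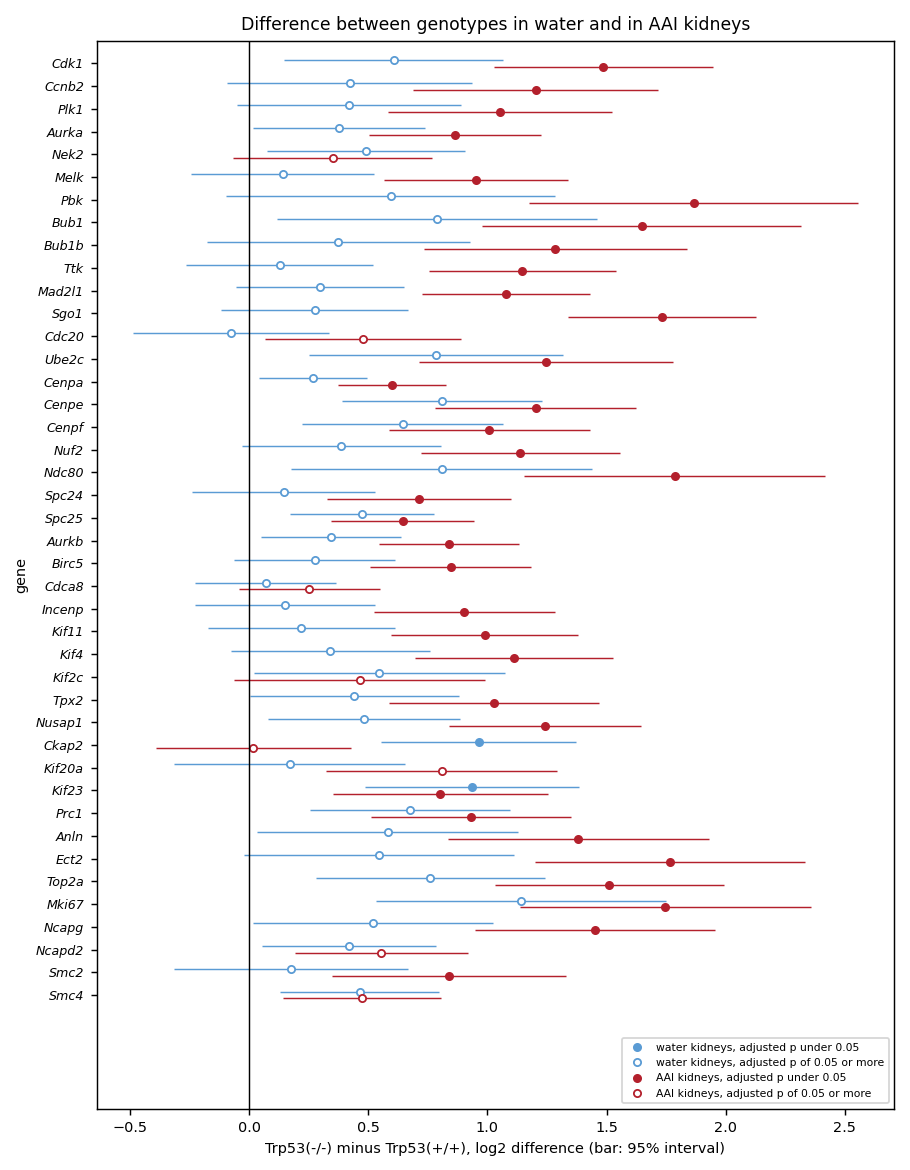
Log2 difference of Trp53(-/-) minus Trp53(+/+) kidneys (x axis) for each of the 42 genes (y axis), in water kidneys (light blue) and AAI kidneys (red), with 95% intervals; filled points have an adjusted p under 0.05. For Sgo1 the red point is at 1.73 and the light blue at 0.27, whereas Ckap2 shows the reverse order, at 0.02 and 0.96.

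Single arrays moved many of the genes together. The mean over the 42 genes, each taken relative to its own mean over the 30 arrays, was -0.84 ± 0.30 (SD, n = 5) in Trp53(+/+) water kidneys and 0.26 ± 0.30 in Trp53(+/+) AAI kidneys. It was -0.51 ± 0.02 and 0.16 ± 0.23 in Trp53(+/-) and -0.37 ± 0.07 and 1.30 ± 0.34 in Trp53(-/-) water and AAI kidneys. The first Trp53(+/+) water array stood at -0.31, compared with -1.06 to -0.86 in the other 4, and was the highest of its group for 32 of the 42 genes. Its summed signal of tubular injury markers was also the highest of that group, at 2272 compared with 512 to 719. The third Trp53(+/-) AAI array stood at -0.23, compared with 0.18 to 0.34, and was the lowest of its group for 33 genes. Its summed fibroblast and myofibroblast markers (1730 compared with 2805 to 3923) and macrophage markers (887 compared with 1031 to 1583) were the lowest of the group too. Its summed injury markers, at 5442, were not the lowest. The first Trp53(+/-) AAI array had 5415, with a mean over the 42 genes of 0.32. The first Trp53(+/+) AAI array was the highest of its group for 23 genes, and its summed injury markers were 23160 compared with 7169 to 8864 in the other 4. The value of 8864 belongs to the fifth Trp53(+/+) AAI array, which had the lowest mean over the 42 genes of that group, at -0.06. Different marker lists are named for different arrays here, and the lists did not all move with the 42 genes. The part of injury or of other cells in these arrays was not tested. Without both first Trp53(+/+) arrays, of water and of AAI, 10 genes differed between Trp53(-/-) and Trp53(+/+) water kidneys. With all arrays it was 2 genes, and 0.641% of all clusters. The arrays were left out after seeing the data, and the share of all clusters called without them is not given here. These water kidneys lie in different cDNA batches, and no gene was called with any batch term. Within groups the genes also varied together: after group means were removed, the median Pearson correlation over the 861 pairs of genes across the 30 arrays was 0.40, and 97.9% of pairs were positive. These pairs share arrays, so the values are given as a description. Mki67 followed the mean of the other 41 genes most closely (r = 0.89), and Incenp least (r = 0.18).

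Related genes were counted from lists of their functions, against the 15.2%, 3.53% and 15.5% of all clusters that rose and the 12.0%, 3.81% and 10.9% that fell. Of 68 other mitotic genes measured, 42, 12 and 54 rose with AAI in Trp53(+/+), Trp53(+/-) and Trp53(-/-) kidneys and none fell, with medians of 0.48, 0.34 and 0.96. Among the 68, Ncapg2, a condensin subunit, changed by 1.59, 0.95 and 2.53 and Arhgap11a by 1.89, 0.89 and 2.20. The kinesin Kif15 changed by 1.51, 0.95 and 2.31 and the kinetochore gene Ska3 by 1.59, 0.69 (not called) and 2.27. The promoters of these other mitotic genes held a CHR word in 39 of 68 windows (57.4%) and CCAAT in 44 (64.7%). Of 23 DNA replication genes, 8, 4 and 17 rose, among them Orc6 (1.12, 0.55 and 1.62), Pcna (1.03, 0.55 and 1.37) and the primase gene Prim1 (0.82, 0.65 and 1.87, the second not called). Of 14 cohesin genes and regulators 4, 0 and 7 rose. Cdca5 (sororin) changed by 0.67, 0.55 (not called) and 0.84, and Esco2 by 0.35, 0.38 and 0.92, of which only the last was called. Subunits and regulators of the anaphase-promoting complex, 20 genes, rose in 5, 1 and 7 cases and fell in 1, 0 and 1, and Cks1b (1.23, 0.64 and 1.69) moved most. Of 11 DREAM and MuvB genes 3, 0 and 6 rose and 1, 0 and 2 fell. Mybl2, the partner of MuvB in late S phase, changed by 0.20, 0.41 and 1.10 (adjusted p 0.542, 0.394 and 0.00017). Rbl1, which encodes the repressor p107, changed by 0.79, 0.32 (not called) and 1.11. Among AAI kidneys, 41 of the 68 other mitotic genes and 15 of the 23 replication genes were higher in Trp53(-/-) than in Trp53(+/+) mice. In this comparison 3.10% of all clusters were called in either direction. It falls nearly wholly along the cDNA batch, so genotype and batch cannot be told apart.

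**Figure D5:**
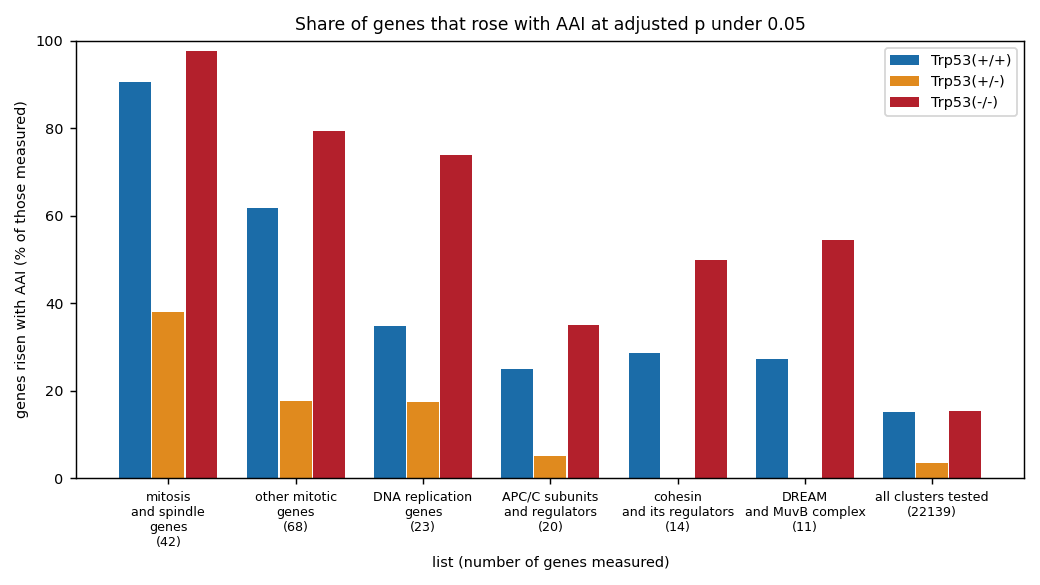
Share of genes that rose with AAI at an adjusted p under 0.05 (y axis, percent of the genes measured) for the 42 genes, 5 lists of related genes and all 22139 clusters (x axis), by genotype. The 42 genes and the 68 other mitotic genes have the tallest bars in all 3 genotypes, and in every list the Trp53(-/-) bar is the highest.

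Markers of the tissue moved with the same groups. Water kidneys carried the proximal tubule markers Slc34a1 (12.51 in Trp53(+/+)) and Lrp2 (11.12) and the loop marker Umod (11.97). With AAI, 11, 9 and 11 of 11 proximal tubule markers fell and all 7 tubular injury markers rose in every genotype. Rises were called for 10, 4 and 9 of 11 macrophage markers, 9, 6 and 9 of 9 fibroblast and myofibroblast markers and 7, 1 and 7 of 7 endothelial markers, and for none of 9 T and B cell markers. Of all clusters, 15.2%, 3.53% and 15.5% rose and 12.0%, 3.81% and 10.9% fell. The summed linear signal of the 42 genes ran from 1893 to 3113 in Trp53(+/+) water, 3670 to 5695 in Trp53(+/+) AAI, 2692 to 2952 and 3170 to 4691 in Trp53(+/-), and 2756 to 3168 and 6525 to 10942 in Trp53(-/-) kidneys. Smc4 weighs most in this sum, with a mean log2 signal of 9.53 in Trp53(+/+) water and 11.02 in Trp53(-/-) AAI kidneys. Summed macrophage markers ran over the same groups from 547 to 678, 1318 to 2020, 731 to 856, 887 to 1583, 667 to 923 and 1462 to 2383. Summed fibroblast and myofibroblast markers ran from 796 to 1245, 4299 to 7432, 1294 to 1965, 1730 to 3923, 1176 to 1525 and 7123 to 9268. Between Trp53(-/-) and Trp53(+/+) AAI kidneys, where 34 of the 42 genes differed, no macrophage, fibroblast or endothelial marker was called, 1 of 7 injury markers was called higher and 4 of 11 proximal tubule markers lower. At the share of all clusters called there, 3.10% in either direction, lists this short would hold few calls or none. The comparison falls nearly wholly along the cDNA batch, so genotype and batch cannot be told apart. The mean was higher in Trp53(-/-) AAI kidneys for all 7 injury, all 7 endothelial, 10 of 11 macrophage and 7 of 9 fibroblast and myofibroblast markers and for 0 of 11 proximal tubule markers. Median log2 differences were 0.68, 0.30, 0.20, 0.48 and -0.73 for these 5 lists. Summed injury markers ran from 7169 to 23160, with a median of 8498, in Trp53(+/+) AAI kidneys and from 13648 to 18540, with a median of 18088, in Trp53(-/-) AAI kidneys. Which cells carried the mitotic transcripts was not tested.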

How the data were processed

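The deposited values, made by the authors from 30 Clariom S mouse arrays of kidney RNA, are log2 signals of transcript clusters from Robust Multi-array Average, computed with the Transcriptome Analysis Console, whose version is not given in the sources used here. Background subtraction and normalization between arrays were thus already done, which evens out differences shared by all genes, and the values ran from 1.92 to 14.04. The number of arrays limits the precision.

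Gene symbols came from the platform table by Entrez number, and 2634 of 22206 clusters have none here. Where a symbol had several clusters the brightest was kept, which dropped 67 and left 22139 to test. R 4.3.3 with limma 3.58.1 fitted 1 mean per group over all 30 arrays without a batch term (24 residual and 7.21 prior degrees of freedom), and p-values are two-sided with Benjamini-Hochberg adjustment per comparison. The fit was tested on simulated data. Arrays were taken as separate animals by their labels.

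The 42 genes and all lists were chosen with earlier results of these data known. Values of every array are given for the 2 genes of each of 7 roles with the largest mean AAI change, the 2 with the smallest p in each difference between genotypes and the 2 with the smallest mean change. In the other lists of related genes up to 4 are named, by the largest change. Of the 42 genes, 8 had no group mean above 5.95, the median over all clusters. They were Nek2, Melk, Ttk, Cdc20, Kif4, Kif2c, Ckap2 and Kif20a, and whether they exceed background is not given by the values. Alternatives were other sets of arrays in the fit, filters, scalings, priors, a replicate block, batch terms, the plain test of the methods, other controls and each array left out. The plain test was run here on the deposited values. Its results are not those of the study, which used ANOVA and removed batch effects.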

Additional observations from a re-analysis of the deposited data

Results flagged for a closer look

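In 114 groups of 5 arrays, those of 18 genes and of the mean over the 42 genes, 8 had 1 array far from the other 4. For independent groups chance alone gives about 1 in 20. These groups share arrays and the genes vary together, so the count cannot be set against that rate. In Trp53(+/+) AAI kidneys, Bub1b stood at 6.67 in array 2 (5.38 to 5.71 in the others) and Ckap2 at 6.43 in array 1 (5.16 to 5.53). In Trp53(+/+) water kidneys, array 1 was high for Ttk, at 5.14 (4.19 to 4.41), and for the mean over the 42 genes, at -0.31 (-1.06 to -0.86). Array 3 of Trp53(+/-) AAI kidneys was low for Kif23, at 6.40 (7.05 to 7.18), Mki67, at 6.25 (7.38 to 7.60), Top2a, at 5.00 (6.00 to 6.28), and the mean, at -0.23 (0.18 to 0.34).

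The change with AAI differed between genotypes, by limma's interaction test, for Sgo1 between Trp53(-/-) and Trp53(+/+) kidneys (log2 difference of 1.46) and for Kif23 between Trp53(+/-) and Trp53(+/+) kidneys (-1.17). Between Trp53(-/-) and Trp53(+/-) kidneys it differed for 17 genes, by 1.50 for Cdk1, 1.96 for Pbk, 1.83 for Bub1, 2.23 for Bub1b, 1.04 for Mad2l1, 1.89 for Sgo1, 1.31 for Ube2c, 1.18 for Cenpe, 1.57 for Ndc80, 1.14 for Incenp, 1.19 for Kif4, 1.24 for Nusap1, 1.37 for Anln, 1.43 for Ect2, 1.28 for Top2a, 1.62 for Mki67 and 1.32 for Ncapg, all larger in Trp53(-/-) kidneys. The 2 comparisons with Trp53(+/-) kidneys cannot be told apart from the cDNA batch.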

How the results depend on the processing

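The counts of genes risen in Trp53(+/+) (38) and Trp53(-/-) kidneys (41) stayed within 1.5 times under every alternative except that the former became 25 with the plain test of the methods after Benjamini-Hochberg adjustment and 19 where a 2-fold change was also required. A 2-fold minimum left 6 genes for Trp53(+/-) kidneys, 22 and 23 for Trp53(-/-) AAI against Trp53(+/+) and Trp53(+/-) AAI kidneys and 0 for Trp53(-/-) against Trp53(+/+) water kidneys. The plain test at an unadjusted p under 0.05 and 2-fold gave 19 and 6 risen in Trp53(+/+) and Trp53(+/-) kidneys, 3 differences of the AAI change from Trp53(+/+) for Trp53(-/-) and 3 for Trp53(+/-), 22 and 23 for the same AAI groups and 1 and 1 for the mutant against Trp53(+/+) water kidneys. After adjustment it gave 0 for both differences of the AAI change from Trp53(+/+), 0 for Trp53(-/-) against Trp53(+/+) AAI kidneys, where it called no cluster at all, and 0 for the same water groups. Fitted on the compared groups alone, 27 genes rose in Trp53(+/-) kidneys, the AAI change of 0 differed between Trp53(-/-) and Trp53(+/+), and 4 and 1 differed between Trp53(-/-) or Trp53(+/-) and Trp53(+/+) water kidneys. Without dim clusters, after quantile normalization or with a trended and robust prior, 2 genes in place of 1 differed in their AAI change between Trp53(+/-) and Trp53(+/+) kidneys. With Trp53(+/+) water kidneys of the same batch as controls, 32 genes were higher in Trp53(+/-) AAI kidneys, in place of 16. That comparison crosses genotypes, so AAI and genotype cannot be told apart in it. Trp53(+/+) water kidneys had the lowest group mean for 35 of the genes. The share of all clusters called with these controls is not given here.

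With Trp53(+/+) AAI arrays 1 to 5 in turn placed in batch 2, the batch term gave 9, 0, 0, 0 and 0 genes risen in Trp53(+/-) kidneys. The difference of the AAI change between Trp53(+/-) and Trp53(+/+) was then called for 0 genes each time and that between Trp53(-/-) and Trp53(+/-) for 0, 2, 1, 1 and 7. Trp53(-/-) AAI kidneys then differed from Trp53(+/+) AAI kidneys for 0, 2, 0, 18 and 14 genes and from Trp53(+/-) AAI kidneys for 0, 5, 4, 16 and 12. Between Trp53(-/-) and Trp53(+/+) water kidneys 0 differed each time. The AAI change of Bub1 in Trp53(+/-) kidneys turned to -0.16 with array 5 in batch 2. In these fits the batch rests on the single assumed Trp53(+/+) AAI array, and the share of all clusters called in them is not given here.

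With 1 array left out, the counts ran from 33 to 38, 9 to 23 and 40 to 42 for genes risen in Trp53(+/+), Trp53(+/-) and Trp53(-/-) kidneys. The lowest of the second was without Trp53(+/-) AAI array 4 and the highest without array 3. Differences of the AAI change ran from 1 to 1 (Trp53(-/-) and Trp53(+/+)), 0 to 3 (Trp53(+/-) and Trp53(+/+)) and 8 to 22 (Trp53(-/-) and Trp53(+/-), the highest without Trp53(-/-) AAI array 5). AAI kidneys differed for 31 to 36, 0 to 0 and 34 to 39 genes, and water kidneys for 0 to 9 (9 without Trp53(+/+) water array 1), 0 to 2 and 0 to 0. Leaving out the first Trp53(+/+) arrays of water and of AAI together, a choice made after seeing the data, gave 2 differences of the AAI change between Trp53(+/-) and Trp53(+/+), 10 between Trp53(-/-) and Trp53(+/+) water kidneys and 5 between Trp53(+/-) and Trp53(+/+) water kidneys. The shares of all clusters called with arrays left out are not given here.

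Arrays of different groups share only a replicate number: over 75 pairs the median correlation of their deviations was -0.006, and 5 pairs exceeded 0.1. With the replicate block, 37, 16 and 42 genes rose in the 3 genotypes, and every other count stayed within 1.5 times. Of 2442 changes of named genes under alternatives, 2325 kept direction and side of the threshold, 76 fell below it, 35 came above it, and 6 changed sign, 5 of them not called before. The cause of these shifts was not tested.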
